A study of Mus musculus with 14 samples.

Results

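The transcripts described here belong to the Th1-like program that regulatory T cells can take on. They were chosen by symbol from the deposited expression table: Tbx21, Cxcr3, Stat4, Runx3, Il12rb1, Il12rb2, Ifngr1, Ifngr2 and Ifng. All 9 were found among the 14449 genes of the table. All 9 were also among the 12329 genes with enough signal to be tested, which meant a CPM (a read count scaled by the authors to the size of its library) over 1 in at least 3 libraries.

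The study concerned regulatory T cells in arthritis driven by IL-1, in mice that lack Il1rn, the gene of the IL-1 receptor antagonist. RNA was profiled in 14 libraries of lymph node cells sorted for CD4 and for a Foxp3-eGFP reporter, which marks regulatory T cells. Wild-type mice gave 7 libraries and Il1rn-/- mice gave 7, all on the BALB/c background and 35 days after birth, and all made with Smart-Seq2, a method for small amounts of RNA. The sample titles end in a letter without an explanation in the labels: set a holds 3 libraries of each genotype, and set b holds 4. Cells of both genotypes were sorted on the same reporter. The labels do not say whether each library is a separate animal, so p-values measure only the spread between libraries, which may be technical. Il1rn was not analysed here, and the genotype labels were not checked against it.

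T-bet, the product of Tbx21, is the master transcription factor of Th1 cells, and regulatory T cells exposed to interferon-gamma or IL-12 can turn it on while they keep Foxp3. T-bet directs the expression of CXCR3, the receptor that takes such cells to sites of Th1 inflammation. IL-12 signals through IL-12Rβ1 and IL-12Rβ2 to STAT4, interferon-gamma signals through IFNGR1 and IFNGR2, and RUNX3 partners T-bet at the Ifng gene.

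The promoters of Cxcr3, Il12rb2 and Ifng are shown because these are the members that T-bet and the STAT factors are known to act on. The sequences are the 250 bases before the RefSeq start on GRCm38.p6, 5′ to 3′ on the gene's strand, and capitals mark matches to the motifs named after them. They lie at chrX:101734148-101734397 (minus strand) for Cxcr3, chr6:67376189-67376438 (minus strand) for Il12rb2 and chr10:118440796-118441045 (plus strand) for Ifng.
Cxcr3: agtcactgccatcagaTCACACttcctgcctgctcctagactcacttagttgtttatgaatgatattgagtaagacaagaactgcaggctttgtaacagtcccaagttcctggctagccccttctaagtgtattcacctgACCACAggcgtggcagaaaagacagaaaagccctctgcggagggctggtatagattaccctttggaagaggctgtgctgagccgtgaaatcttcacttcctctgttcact
Il12rb2: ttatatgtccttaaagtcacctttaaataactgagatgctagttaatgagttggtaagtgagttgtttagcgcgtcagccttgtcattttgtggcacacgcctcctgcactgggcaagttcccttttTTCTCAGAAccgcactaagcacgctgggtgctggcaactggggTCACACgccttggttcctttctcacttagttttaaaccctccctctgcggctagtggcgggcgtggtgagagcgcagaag
Ifng: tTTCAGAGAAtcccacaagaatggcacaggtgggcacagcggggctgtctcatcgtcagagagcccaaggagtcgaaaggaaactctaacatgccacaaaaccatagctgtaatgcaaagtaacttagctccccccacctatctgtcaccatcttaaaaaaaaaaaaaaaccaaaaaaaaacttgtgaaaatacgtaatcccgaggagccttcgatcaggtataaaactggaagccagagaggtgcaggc
The letters searched, on both strands, were TCACAC (core of a T-box site), ACCACA (core of a RUNX site), TTCNNNGAA (the GAS element that STAT dimers bind) and GAAANNGAA (core of an interferon-stimulated response element). In the Cxcr3 window TCACAC begins 234 bases and ACCACA 110 bases before the start. In Il12rb2 TTCTCAGAA begins 123 bases and TCACAC 80 bases before it, and in Ifng TTCAGAGAA begins 249 bases before it. Promoter windows were found for 8 of the 9 members, in 10 entries since Stat4 and Runx3 have more than 1 start each. Of the windows not printed, 1 of Runx3 holds ACCACA at 134 and 126 bases before the start, and 1 of Stat4 holds GAAAGTGAA at 97 bases before it. The windows of Tbx21, Ifngr1 and Ifngr2 hold none of these letters. The 8 matches do not overlap each other. Among 32851 promoter windows of the same length, 12.3% hold TCACAC, 14% ACCACA, 7.02% TTCNNNGAA and 7.13% GAAANNGAA, and a match is a description of the letters only.

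Each library held 952021 to 3756559 reads in the genes of the table. By correlation the libraries formed a deep group of 8, made of all set a libraries with Il1rn-/- 3-b and 4-b, and a shallow group of 6, the rest of set b. The ribosomal RNA gene Rn45s held 20.3% to 39.95% of the reads of deep libraries and 59.6% to 65.8% of those of shallow ones. Transcripts of the Y chromosome appeared in wild-type 1-a and 2-a and in Il1rn-/- 3-b and 4-b. In set b only the deep libraries held them, so library group and Y-linked transcripts cannot be told apart in that set. Foxp3 lay between 8.15 and 9.06 log2 CPM and Cd4 between 7.95 and 8.55, so both markers of the sort were present in every library. CD8 T and NK cells also use Tbx21, Runx3 and Ifng. Of 11 markers of these cells 8 were in the table, and their summed level was 50.6 to 60.7 CPM in wild-type and 51.3 to 53.5 CPM in Il1rn-/- libraries of set a. In set b it was 45.3 to 95.7 CPM in wild-type and 59.9 to 77.4 CPM in Il1rn-/- libraries. Over all libraries Cd8a had 377 reads, Cd8b1 528, Nkg7 902, Prf1 676, Gzma 24, Eomes 21, Gzmk 9 and Klrb1c 7, and the part of such cells in the members' levels was not tested.

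Compared per kilobase of the longest coding transcript (GENCODE M21), the members spanned a wide range of levels. Ifngr1 had a median of 90.1 CPM per kilobase over the 14 libraries, near the 96.2 of Foxp3. Stat4 (22.6) and Cxcr3 (22.6) came next, then Ifngr2 (10.1), Il12rb1 (8.41) and Runx3 (4.46). The least abundant were Tbx21 with 1.74, Ifng with 1.36 and Il12rb2 with 0.174 CPM per kilobase. The interferon-gamma receptor, the shared IL-12 receptor chain and Stat4 were thus well covered by reads, while the specific IL-12 chain was near the limit of detection. The cytokine was near that limit in shallow libraries, with 0 to 2 reads, and had 6 to 44 reads in deep ones.

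The main comparison was Il1rn-/- against wild type over both sets, by limma on log2 CPM with genotype and letter in the model. No member passed: 0 of 9 had an adjusted p under 0.05, against 0% of all tested genes, and 0 of 9 had an unadjusted p under 0.05, against 5.51%. The log2 difference was positive for 7 members and negative for Cxcr3 and Runx3. Its median was 0.23, beside a median of 0.04 over all genes tested (6815 positive, 5514 negative). The genotypes overlapped in the levels of all 9 members, and 0.0324% of tested genes showed no overlap. With library group in place of the letter, again 0 of 9 passed after adjustment (0% of tested genes) and 0 of 9 had an unadjusted p under 0.05 (2.46%). In bulk RNA, fewer cells of a type and less RNA per cell cannot be told apart.

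**Figure D1:**
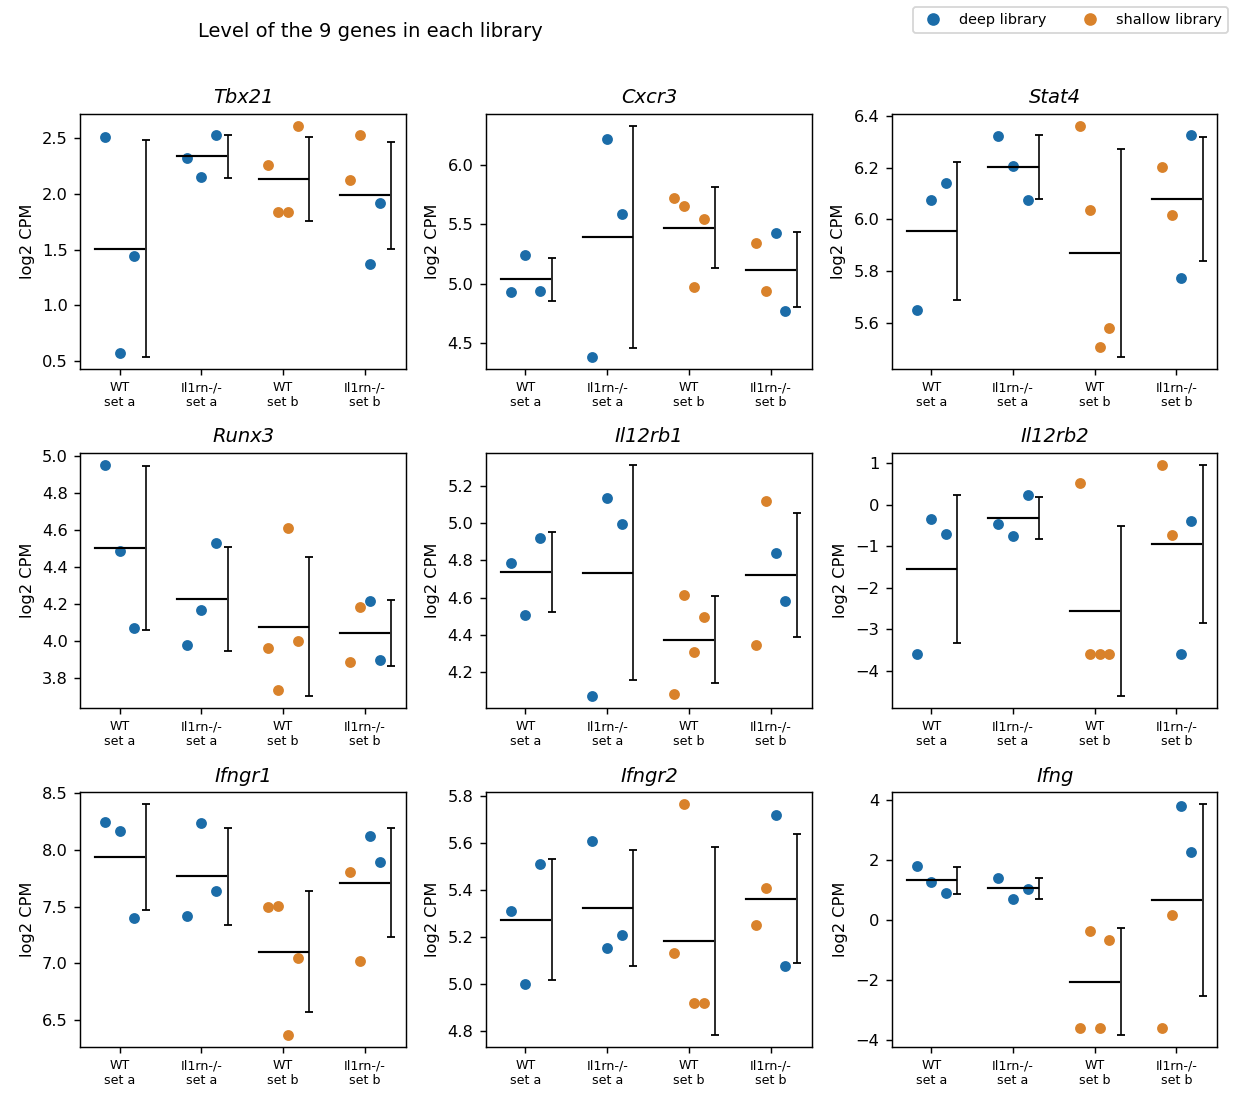
Level of each of the 9 genes (log2 CPM, vertical axis, with a scale of its own per gene) in the 14 libraries, by genotype and set. Points are libraries, coloured by library group, lines are group means and bars are ± 1 SD (n = 3 per genotype in set a, 4 in set b). The genotypes overlap for every gene, and for Ifng every deep library lies above every shallow one.

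The values of each member are given in the order of the library numbers, 1 to 3 in set a and 1 to 4 in set b. Tbx21 (Entrez gene 57765) was a low but present transcript, with 3 to 26 reads per library. In set a its level was 2.51, 0.57 and 1.44 log2 CPM in the wild-type libraries and 2.33, 2.15 and 2.53 in the Il1rn-/- ones. In set b it was 2.26, 1.84, 1.84 and 2.61 in the wild-type libraries and 2.13, 2.53, 1.37 and 1.92 in the Il1rn-/- ones. Wild-type 2-a, with 6 reads, was the lowest library, and the genotypes overlapped in both sets. The mean was 1.87 ± 0.71 log2 CPM for wild type against 2.14 ± 0.40 for Il1rn-/- (± SD over 7 libraries). Over both sets the log2 difference was 0.27 ± 0.37 (estimate ± SE here and below; 95% confidence interval -0.51 to 1.05, adjusted p 0.891 by limma). Set a gave 0.83 ± 0.56 and set b -0.15 ± 0.49, and the test of the difference between sets gave -0.98 ± 0.74 (adjusted p 0.741 by limma). With library group in the model the set b value was 0.19 ± 0.57, which compares only the shallow libraries of set b. Without wild-type 2-a the difference was 0.04 over both sets and 0.36 in set a. Summed over libraries, Tbx21 had 67 reads in wild type, or 3.50 CPM, and 103 in Il1rn-/-, or 4.51 CPM.

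Taken relative to Foxp3 in the same library, which removes the scaling between libraries, Tbx21 ranged from -8.33 log2 units in wild-type 2-a to -5.70 in wild-type 4-b. The mean ratio was -6.69 ± 0.81 for wild type and -6.45 ± 0.43 for Il1rn-/- (± SD over 7 libraries). The genotypes differed by 0.24 on the log2 scale, less than the spread within either one (exact two-sided permutation within letters, 1400 exchanges, p = 0.556, adjusted p = 0.61 over the 2 ratios tested). Without wild-type 2-a the difference was -0.02.

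Stat4 (Entrez gene 20849), the transcription factor that IL-12 activates, was among the steadiest members. Its set a levels were 5.65, 6.08 and 6.14 log2 CPM in the wild-type libraries and 6.32, 6.21 and 6.08 in the Il1rn-/- ones. Set b gave 6.36, 6.04, 5.50 and 5.58 in the wild-type libraries and 6.20, 6.02, 5.77 and 6.33 in the Il1rn-/- ones. Both the highest library (1-b) and the lowest (3-b) were wild type, and 6 of the 7 Il1rn-/- libraries exceeded the mean of the wild-type ones. The difference was 0.23 ± 0.15 (95% confidence interval -0.10 to 0.55, adjusted p 0.801 by limma). The estimates of 0.25 ± 0.24 in set a, 0.21 ± 0.21 in set b and 0.21 ± 0.15 with library group in the model were close to it, and none of them passed.

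Runx3 (Entrez gene 12399), the Runt factor that acts beside T-bet, had the largest negative estimate of the 9, though a small one. Levels in set a were 4.95, 4.49 and 4.07 log2 CPM in the wild-type libraries and 3.98, 4.17 and 4.53 in the Il1rn-/- ones. Levels in set b were 3.96, 3.74, 4.61 and 4.00 in the wild-type libraries and 3.89, 4.19, 4.22 and 3.90 in the Il1rn-/- ones. Wild-type 1-a was the highest library and wild-type 2-b the lowest, and 6 of the 7 Il1rn-/- libraries were under the mean of the wild-type ones. The difference was -0.14 ± 0.19 (95% confidence interval -0.54 to 0.27, adjusted p 0.895 by limma), with -0.28 ± 0.30 in set a and -0.03 ± 0.26 in set b.

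Cxcr3 (Entrez gene 12766), the chemokine receptor under T-bet control, had estimates of opposite sign in the sets. In set a it stood at 4.93, 5.24 and 4.94 log2 CPM in the wild-type libraries and at 4.39, 6.22 and 5.58 in the Il1rn-/- ones. Il1rn-/- 1-a and 2-a were the lowest and the highest of all 14 libraries, so the Il1rn-/- libraries of set a enclosed every wild-type one. In set b it stood at 5.72, 5.65, 4.97 and 5.55 in the wild-type libraries and at 5.34, 4.94, 5.43 and 4.77 in the Il1rn-/- ones. Set a gave 0.36 ± 0.35 and set b -0.35 ± 0.30, and the difference between the sets was -0.71 ± 0.46 (adjusted p 0.697 by limma). Over both sets Cxcr3 differed by -0.05 ± 0.24 (95% confidence interval -0.55 to 0.45, adjusted p 0.973 by limma). That value was 0.00 ± 0.24 with library group in the model. Wild-type 2-a, the library lowest for Tbx21 at 0.57 log2 CPM, had the highest Cxcr3 level of the set a wild-type libraries at 5.24.

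Il12rb1 (Entrez gene 16161), the receptor chain shared by IL-12 and IL-23, was read in every library. Among set a libraries it had 4.79, 4.51 and 4.92 log2 CPM in wild type and 4.07, 5.14 and 5.00 in Il1rn-/-. Among set b libraries it had 4.08, 4.61, 4.31 and 4.50 in wild type and 4.34, 5.12, 4.84 and 4.58 in Il1rn-/-. Il1rn-/- 1-a was the lowest and Il1rn-/- 2-a the highest library, as for Cxcr3. The difference was 0.20 ± 0.19 (95% confidence interval -0.21 to 0.60, adjusted p 0.853 by limma). The estimate was -0.00 ± 0.30 in set a and 0.35 ± 0.26 in set b, where the means of 4.38 ± 0.23 log2 CPM for wild type and 4.72 ± 0.33 for Il1rn-/- (± SD over 4 libraries) lay farther apart than either SD.

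Il12rb2 (Entrez gene 16162), the chain that makes the receptor specific for IL-12, was at the edge of detection. In set a it had 0, 3 and 3 reads in the wild-type libraries and 3, 2 and 5 in the Il1rn-/- ones. In set b it had 2, 0, 0 and 0 reads in the wild-type libraries and 3, 1, 0 and 2 in the Il1rn-/- ones. It was thus at 0 reads in 4 wild-type libraries and 1 Il1rn-/- library, where the 3 reads that a count of 0 allows correspond to 0.843 to 3.48 CPM. Summed over libraries, wild type had 8 reads, or 0.418 CPM (95% exact Poisson interval 0.180 to 0.824), and Il1rn-/- had 16, or 0.700 CPM (0.400 to 1.14). The intervals overlap and cover counting error only. The fitted log2 difference was 1.45 ± 0.91 (95% confidence interval -0.45 to 3.35, adjusted p 0.792 by limma). It depends on the value given to 0 reads, and was 0.37 with a prior of 1 CPM and 0.59 by limma voom on the recovered reads. A difference in Il12rb2 was not detectable at this depth. Beside it, Il12rb1 had 17 to 172 reads per library, so reads of the shared chain exceeded those of the specific one in all 14 libraries.

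**Figure D2:**
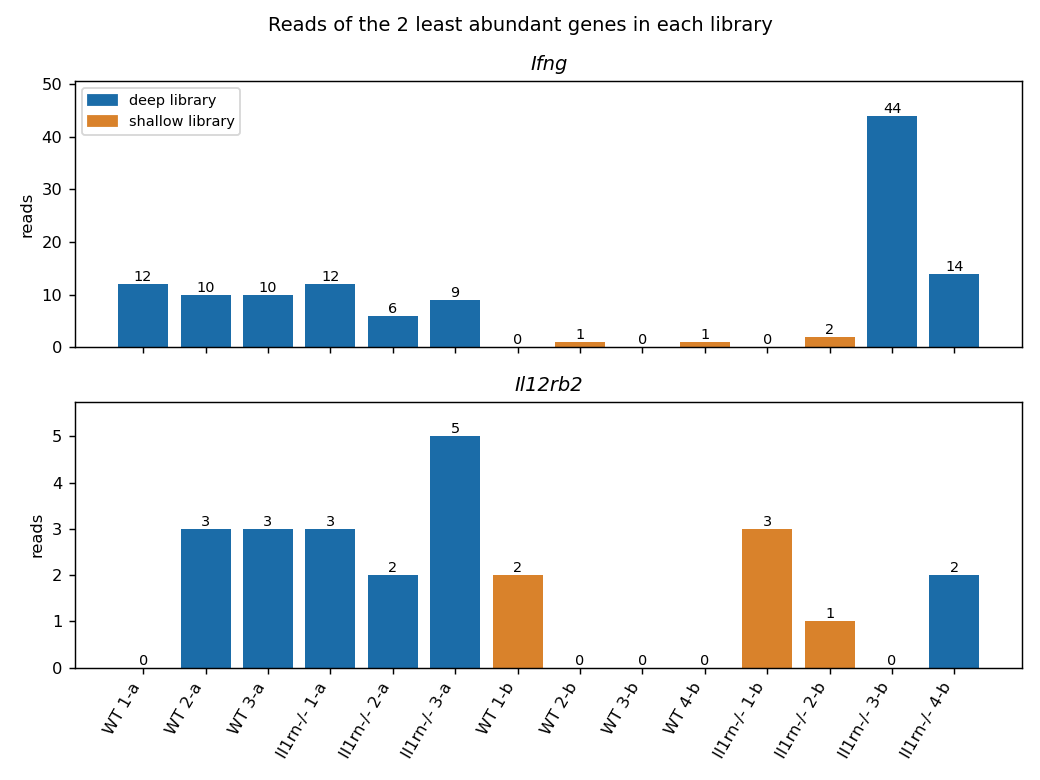
Reads of Ifng (upper panel) and Il12rb2 (lower panel) in each of the 14 libraries, as bars from 0 with the count printed above, coloured by library group. Ifng has 6 to 44 reads in deep and 0 to 2 in shallow libraries, and Il12rb2 never exceeds 5.

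Ifngr1 (Entrez gene 15979), the ligand-binding chain of the interferon-gamma receptor, was the most abundant member. Set a libraries gave 8.24, 8.17 and 7.40 log2 CPM in wild type and 7.42, 8.24 and 7.64 in Il1rn-/-. Set b libraries gave 7.50, 7.50, 6.37 and 7.05 in wild type and 7.81, 7.02, 8.12 and 7.90 in Il1rn-/-. Wild-type 3-b, the library with the fewest reads, was lowest, and of the set b Il1rn-/- libraries 2-b lay within the wild-type range. Over both sets the difference was 0.27 ± 0.23 (95% confidence interval -0.22 to 0.76, adjusted p 0.831 by limma). Set a gave -0.17 ± 0.33 and set b 0.61 ± 0.29 (adjusted p 0.333 by limma), and the difference between sets was 0.78 ± 0.44 (adjusted p 0.672 by limma).

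The set b value of Ifngr1 moved once library group was in the model. Wild-type set b was wholly shallow, and Il1rn-/- set b was deep in 2 libraries of 4, which were also those with Y-linked transcripts. The mean was 7.89 ± 0.36 log2 CPM over the 8 deep and 7.21 ± 0.51 over the 6 shallow libraries (± SD). Once library group was in the model the difference was 0.09 ± 0.21 over both sets. In set b it was then 0.31 ± 0.33, which compares only the shallow libraries of that set. Without wild-type 3-b the set b difference was 0.36.

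Ifngr2 (Entrez gene 15980), the signalling chain of the same receptor, varied least of the 9 between the groups. Its levels in set a were 5.31, 5.00 and 5.51 log2 CPM in the wild-type libraries and 5.61, 5.16 and 5.21 in the Il1rn-/- ones. Those in set b were 5.13, 5.77, 4.92 and 4.92 in the wild-type libraries and 5.25, 5.41, 5.72 and 5.08 in the Il1rn-/- ones. The 4 group means spanned 0.18 log2 units, less than the SD of any group. The difference was 0.12 ± 0.17 (95% confidence interval -0.23 to 0.47, adjusted p 0.889 by limma).

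Within a library the log2 CPM of Ifngr1 exceeded that of Ifngr2 by 1.45 to 3.16. The mean of this ratio was 2.24 ± 0.63 for wild type and 2.39 ± 0.52 for Il1rn-/- (± SD over 7 libraries). The genotypes differed by 0.15, within the spread of each (exact two-sided permutation within letters, p = 0.61, adjusted p = 0.61). The mean ratio was 2.57 in deep and 1.97 in shallow libraries, and with libraries exchanged within library groups in place of letters the genotype difference was -0.02.

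**Figure D3:**
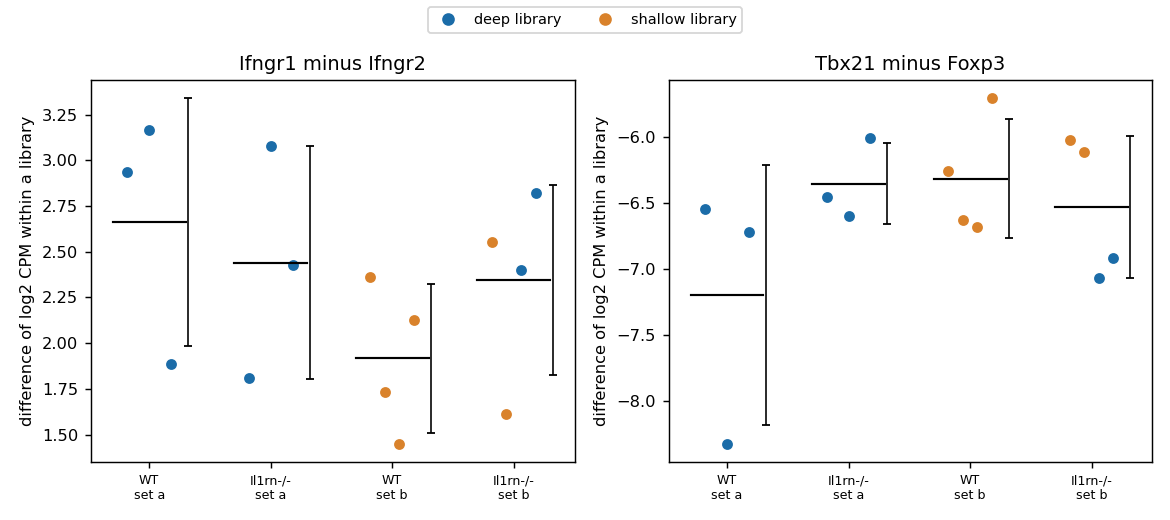
Log2 CPM of Ifngr1 minus that of Ifngr2 (left) and of Tbx21 minus that of Foxp3 (right) in each library (vertical axis, log2 units), by genotype and set, with group means (lines) and ± 1 SD (bars, n = 3 or 4). Wild-type 2-a lies apart at -8.33 in the right panel, and the genotypes overlap in both.

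Ifng (Entrez gene 15978), the Th1 cytokine itself, had few reads and differed between the library groups. Set a had 12, 10 and 10 reads in the wild-type libraries and 12, 6 and 9 in the Il1rn-/- ones. Set b had 0, 1, 0 and 1 reads in the wild-type libraries and 0, 2, 44 and 14 in the Il1rn-/- ones. On the log2 CPM scale set a thus ran from 0.88 to 1.79 in wild type and from 0.70 to 1.41 in Il1rn-/-, while Il1rn-/- 3-b reached 3.79 and 4-b 2.26. The remaining set b libraries, of either genotype, had 2 reads at most, and 3 of those 6 had 0, which allows up to 1.84 to 3.48 CPM.

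In set a the genotypes overlapped, with 32 reads in wild type, or 2.36 CPM, and 27 in Il1rn-/-, or 2.06 CPM, and a log2 difference of -0.26 ± 1.41. In set b the difference was 2.71 ± 1.22 (95% confidence interval 0.15 to 5.26, adjusted p 0.316 by limma), at an unadjusted p of 0.0394. The fit behind these values takes the spread of each gene from all 14 libraries. With set b fitted alone Ifng gave 2.71 ± 1.51 (unadjusted p 0.0974 by limma), and with set a fitted alone -0.26 ± 0.41. In the shared fit Ifng was the only member with an unadjusted p under 0.05 within set b, a mark reached by 15% of all tested genes. Within set a 0 of 9 members reached it (1.97% of tested genes), and for the difference between sets 0 of 9 did (7.85%). After adjustment 0 of 9 passed in each of these comparisons, as did 0% of tested genes. Of the 60 Ifng reads in Il1rn-/- set b, 44 came from 3-b and 14 from 4-b, the deep libraries of that group, and wild-type set b had 2 reads. Il1rn-/- 3-b and 4-b are also the only libraries of set b with Y-linked transcripts, so the values do not separate library group from these transcripts. With library group in the model the set b difference was 0.34 ± 1.13. That value compares only the shallow libraries of set b, since wild-type set b has no deep library. The difference over both sets went from 1.43 ± 0.97 (adjusted p 0.797 by limma) to 0.45 ± 0.75 with library group in place of the letter. The difference between sets was 2.97 ± 1.86 (adjusted p 0.690 by limma). The value over both sets was 0.76 without Il1rn-/- 3-b and 0.02 without 3-b and 4-b, but 2.07 without Il1rn-/- 1-b (adjusted p 0.635 by limma), a library with 0 Ifng reads. Without 1-b the set b difference was 4.12 (adjusted p 0.0593 by limma), and without 3-b it was 1.66 (adjusted p 0.633 by limma). Both depend on the value given to 0 reads as well. With a prior of 1 CPM they were 0.78 over both sets and 1.51 in set b (adjusted p 0.256 by limma), and by limma voom on the recovered reads 0.63 and 2.14.

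Ifng was the only member that lay higher in every deep library than in every shallow one. Such a gap, in either direction, was seen for 14.9% of tested genes. The deep libraries held 117 reads, or 3.57 CPM, and the shallow ones 4 reads, or 0.436 CPM. At the CPM of the deep libraries the shallow ones would have held 32.7 reads, or 22.6 when Il1rn-/- 3-b is left out of the deep ones, and the exact 95% interval of the 4 reads was 1.09 to 10.2. The library groups were found from the same table, so this is a description. Tbx21, which also had few reads, was at 3.84 CPM in deep and 4.80 CPM in shallow libraries. In Il1rn-/- 3-b, which had 44 Ifng reads, the summed CD8 T and NK markers came to 77.4 CPM. That was the highest sum of the deep libraries, which ranged from 50.6 to 77.4 CPM. The next deep libraries by Ifng level, Il1rn-/- 4-b (4.71 CPM) and wild-type 1-a (3.37 CPM), had marker sums of 59.9 and 60.7 CPM. The shallow libraries, with 0 to 2 Ifng reads, had sums of 45.3 to 95.7 CPM. The part of such cells in the Ifng level was not tested.

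**Figure D4:**
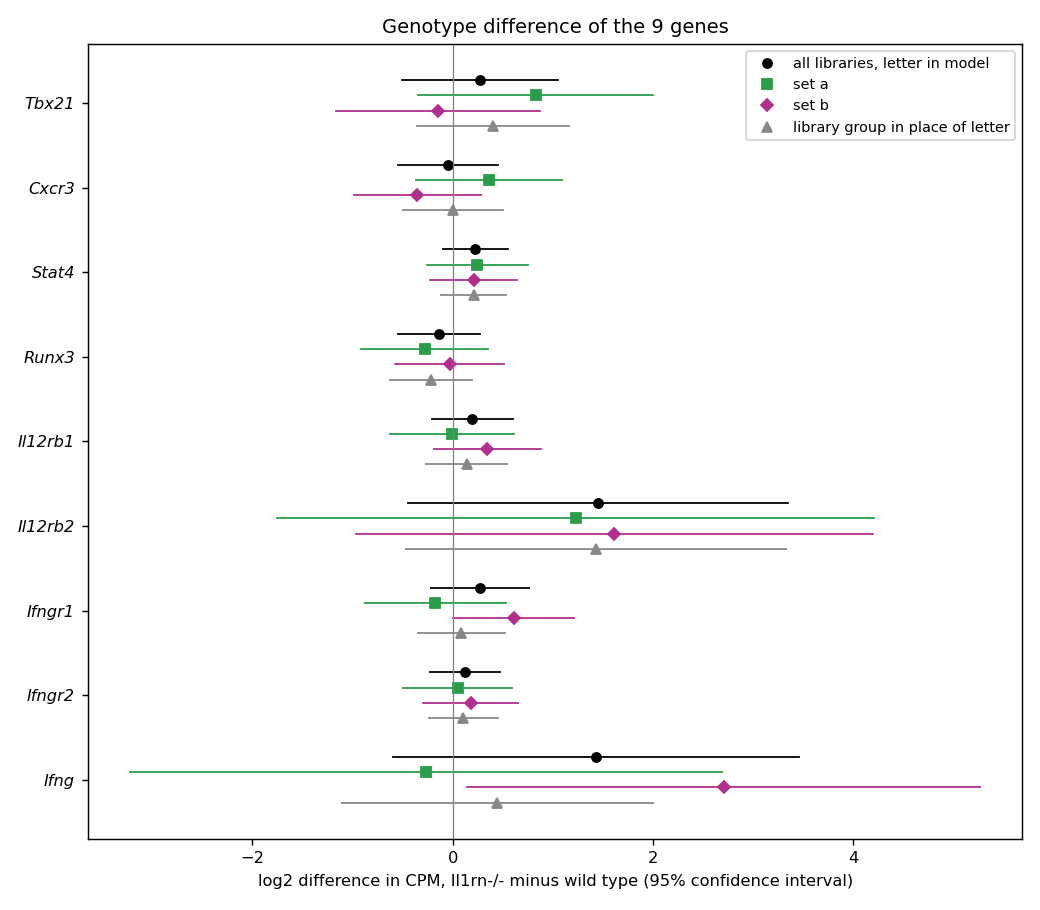
Log2 difference in CPM (Il1rn-/- minus wild type, horizontal axis) of each of the 9 genes with its 95% confidence interval, from all libraries with the letter in the model, from set a, from set b, and with the library group in place of the letter. Intervals cross 0 for all members but Ifng in set b, and those of Il12rb2 and Ifng are the widest. The values within sets take their spread from all 14 libraries.

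Ordered by their means, the 4 groups had no common order across members. Wild-type set b was lowest for Stat4, Il12rb1, Il12rb2, Ifngr1, Ifngr2 and Ifng, while it was highest for Cxcr3. Neighbours in that order differed by more than the larger of their SDs only for Il12rb1 and Ifngr1, in both cases between Il1rn-/- set b and wild-type set b. Within set a no member separated the genotypes, as 7.97% of tested genes did, and within set b none did, against 4.28%.

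Between the sets, with genotype in the model, 0 of 9 members passed, against 19.5% of all tested genes (8.48% higher and 11% lower in set b). At an unadjusted p under 0.05 it was also 0 of 9, against 34.2%. Ifng came nearest at -1.88 ± 0.98 (set b minus set a, adjusted p 0.181 by limma). This value depends on what is given to 0 reads. With a prior of 1 CPM it was -0.58 (adjusted p 0.408 by limma), by limma voom on the recovered reads -0.48 (adjusted p 0.638), and scaled to reads outside ribosomal RNA -0.95 (adjusted p 0.330 by limma). It passed without Il1rn-/- 3-b (-2.46, adjusted p 0.0498 by limma), with library weights (-2.26, adjusted p 0.0321 by limma) and without Il1rn-/- 3-b and 4-b (-3.11, adjusted p 0.00502 by limma). Ifngr1 stood at -0.44 ± 0.24 and passed in the last of these settings (-0.63, adjusted p 0.0348 by limma). There set a is wholly deep and set b wholly shallow, so letter and library group cannot be told apart. Of 12329 tested genes the letter called 4091 with library weights and 4462 without Il1rn-/- 3-b and 4-b. With single libraries left out it called 1355 to 3376 genes. Passing in these settings was thus not particular to the members.

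The wider pathways were described by lists, with the genes named by the smallest unadjusted p, and no gene of any list passed after adjustment. Genes of IL-12, IL-18 and IL-27 signalling had 13 positive and 4 negative differences of 17 tested, 3 of them members, with a median of 0.09, and 0 had an unadjusted p under 0.05. The kinase gene Tyk2, which serves the IL-12 receptor, differed by 0.45 ± 0.22 and Il27ra, the IL-27 receptor chain, by 0.26 ± 0.14. With library group in the model 8 were positive and 9 negative, the median was -0.02, and Tyk2 came to 0.15.

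Interferon-gamma signalling had 11 positive and 4 negative differences of 15, with a median of 0.15. Irf2, which competes with Irf1 at interferon response elements, had a difference of -0.54 ± 0.20, and -0.27 with library group in the model. Its unadjusted p was under 0.05 and its adjusted p was 0.787 by limma.

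Of 29 transcripts that interferon-gamma induces, 21 had positive and 8 negative differences. The median was 0.30, and 8 genes had an unadjusted p under 0.05, all with a positive difference, a mark reached by 5.51% of all tested genes. Of the 29, 2 reached it with library group in the model, against 2.46% of tested genes. The list shares genes with the interferon-stimulated genes that earlier results of these data already described, so it is no independent evidence of a direction. The guanylate-binding protein gene Gbp9 differed by 0.55 ± 0.17, the immunity-related GTPase gene Iigp1 by 0.72 ± 0.22, Gbp4 by 0.65 ± 0.24 and the peptide transporter gene Tap1 by 0.48 ± 0.18, each at an adjusted p of 0.787 by limma. With library group in the model 26 were positive and 3 negative, the median was 0.15, and these 4 genes came to 0.31, 0.37, 0.24 and 0.24. In set a, where the Ifng difference was -0.26, the median of this list was 0.28, and in set b, where it was 2.71, the median was 0.43.

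The Th1 transcription factors and their partners were even, with 7 positive and 9 negative differences of 16 tested and a median of -0.00. Surface and effector genes linked to T-bet had 11 positive and 6 negative of 17 tested, with a median of 0.09. Ly6c1 led that list at 2.49 ± 0.83, with 0 to 7 reads per library. Il2rb, a receptor chain for IL-2 and IL-15, differed by -0.29 ± 0.19. Ly6c1 came to 2.05 and Il2rb to 0.01 with library group in the model. Factors of opposing programs had 8 positive and 5 negative of 13, with a median of 0.08. Among them Rora, a nuclear receptor gene, differed by 0.49 ± 0.30 and the follicular factor gene Bcl6 by -0.37 ± 0.36, but with library group in the model these were 0.03 and 0.15.

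**Figure D5:**
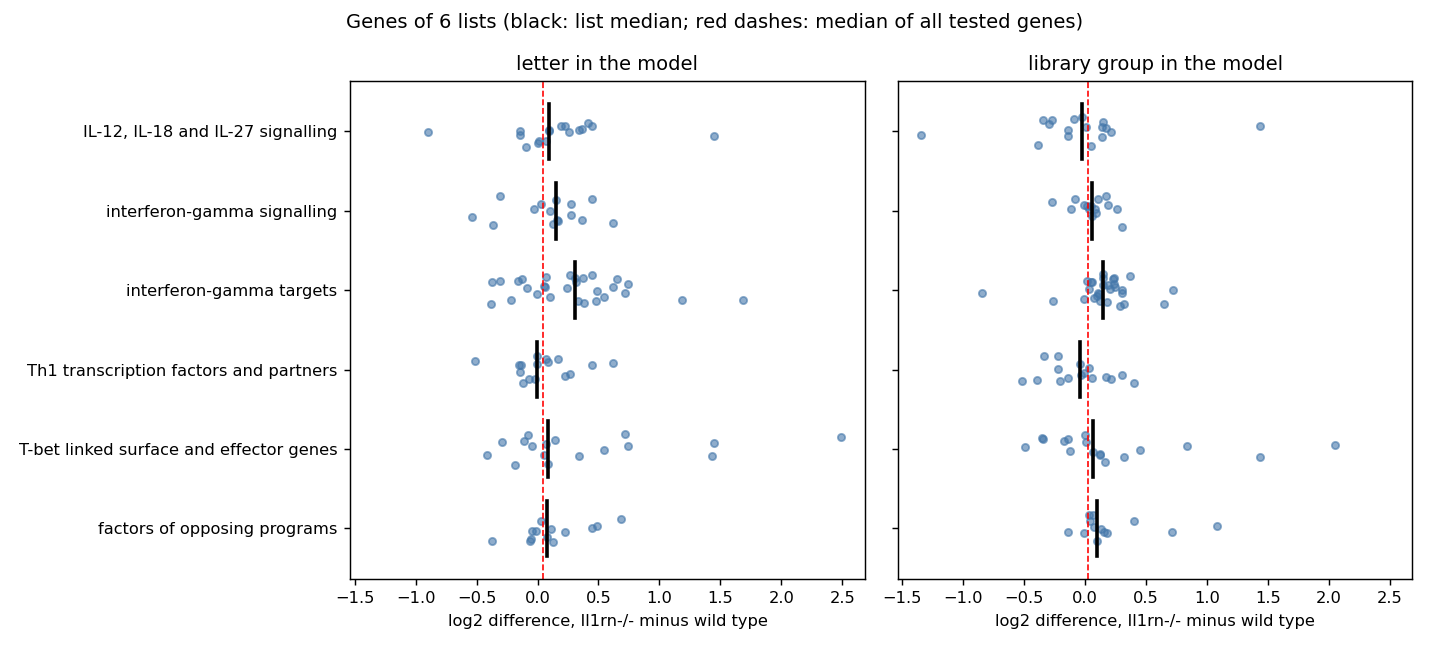
Log2 difference (Il1rn-/- minus wild type, horizontal axis) of every tested gene in 6 lists, with the letter (left) or the library group (right) in the model. Each point is a gene, black lines are list medians and the red dashes the median of all tested genes. The interferon-gamma targets have the highest median in both panels, at 0.30 and 0.15.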

How the data were processed

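The deposited table gives log2 CPM for 14 libraries, with Entrez identifiers and symbols for all but 165 of its genes. RNA was purified with the RNeasy Micro kit and transcripts quantified by Cuffquant 2.2.1, per the labels' protocols. Further tools in the submitters' processing notes are Cufflinks 2.2.1, Cuffnorm, TopHat2 2.0.10 and BWA. How the authors made the log2 values, on which build and annotation, and whether strand was used is not stated in the labels, so promoters carry their own build. The deposited values step by whole reads above a lowest value of -3.58 (0 reads). Reads were recovered from these steps, and 100% of the values came within 0.001 of a whole read. The library size implied by the deposited scaling was 0.690 to 1.61 times the reads in the table.

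limma 3.58.1 (R 4.3.3) with an intensity trend was fitted to all 12329 tested genes, two-sided, with Benjamini-Hochberg adjustment at 0.05. Terms were genotype and letter, or the 4 groups for the contrasts within sets, where all 14 libraries share the estimate of the spread. Exact permutations ran in Python 3.11.15 with numpy 2.4.6, and figures were drawn with matplotlib 3.10.9. The library group came from average linkage on the correlations between libraries. A library with at least 20 reads of Y-linked genes counted as holding them. The steps were tested on simulated data. Intervals of summed reads are exact Poisson intervals for counting error only, since without molecular identifiers PCR copies are counted as well. Depth limits precision most for Il12rb2, Ifng and Tbx21.

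The members and the lists were chosen with earlier results of these data known. Beside the 9 members, the text names up to 4 genes per list by the smallest unadjusted p, the 2 genes closest to each member with a mean log2 CPM of at least 4, and markers of the sorted cells. Of the genes that rule picks from the lists, 2 are not reported here. Alternatives covered the filter, the prior, scaling, the letter, a replicate block, the library group, the Rn45s share, library weights, limma voom, each library left out and subsets of libraries. The subsets without Il1rn-/- 3-b and 4-b and without Y-linked transcripts were chosen after seeing the data.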

Additional observations from a re-analysis of the deposited data

Results flagged for a closer look

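Over 44 groups of 4 to 10 libraries, 3 held a library apart from the rest by Dixon's criterion, a criterion that chance meets in about 1 of 20 groups where values are continuous. That rate does not hold for the first pair named here, which is Il12rb2 at 0 to 5 reads per library: all libraries at 0 reads share 1 value, and the distance from 0 reads to 1 depends on the value given to 0. Il12rb2 in wild-type 1-b was at 0.52 log2 CPM, from 2 reads, where the other 3 wild-type libraries of set b had 0 reads, so the gap equals the range by construction. Il12rb2 in Il1rn-/- 3-b was at -3.58, which is 0 reads, below the other 6 Il1rn-/- libraries. The ratio of Tbx21 to Foxp3 in wild-type 2-a was -8.33 log2 units, with the nearest wild-type library at -6.72. Wild-type 2-a rests on 6 reads of Tbx21.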

How the results depend on the processing

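Of 355 member differences under other settings 334 kept their direction and side of the threshold, 18 reversed and 3 passed, and of 462 with 1 library left out 17 reversed and 1 passed. Scaling to reads outside ribosomal RNA moved the median difference of all genes from 0.04 to -0.06. The cause of the reversals was not tested. With library group in the model Cxcr3 gave 0.0023 and Tbx21 in set b 0.19, which was also its value without both deep Il1rn-/- libraries of set b. Without those libraries Cxcr3 gave 0.033 and the ratio of Ifngr1 to Ifngr2 -0.028, which was -0.017 within library groups. In set a alone Cxcr3 gave 0.36, Il12rb1 -0.0038, Ifngr1 -0.17 and Ifng -0.26. In the deep libraries alone Cxcr3 gave 0.24, Il12rb1 -0.013 and Ifngr1 -0.075. In set b alone Tbx21 gave -0.15. Without the libraries with Y-linked transcripts, and with library group in the model, Runx3 gave 0.030. Library weights gave 0.020 for Cxcr3, 0.094 for Il12rb1 in set a and 0.039 for Runx3 in set b, which was 0.016 by limma voom. Centring on the library median gave -0.016 for Ifngr2 in set a.

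Genes called for genotype numbered 0 (679 unadjusted), 1 in set a alone and 2 in the deep libraries alone. Within set b 0 were called (1848 unadjusted), 4 with library group in the model and 1 without both deep Il1rn-/- libraries. The letter called 2408, 4091 with library weights and 4462 without both deep Il1rn-/- libraries of set b.

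Leaving out single libraries gave 0 genes for genotype, 0 to 1 within set a, 0 to 230 within set b (230 without Il1rn-/- 2-b, 7 without 1-b, 3 without wild-type 1-b), 0 for the difference between sets and 1355 (without wild-type 2-a) to 3376 (without Il1rn-/- 4-b) for the letter. Ranges that crossed 0 were, for genotype, -0.24 to 0.10 for Cxcr3 and -0.024 to 0.39 for the ratio of Tbx21 to Foxp3. Within set a they were -0.052 to 0.87 for Cxcr3, -0.20 to 0.33 for Il12rb1, -0.44 to 0.00062 for Ifngr1 and -0.093 to 0.17 for Ifngr2. Within set b they were -0.33 to 0.057 for Tbx21 and -0.15 to 0.15 for Runx3.

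Same-numbered libraries of the genotypes did not deviate together (correlations of -0.151 to 0.0005), so no pairing by number was seen. These correlations cannot exclude a pairing, since the groups are small and Il1rn-/- set b mixes deep and shallow libraries. With a replicate block 0 genes were called for genotype, Tbx21 gave 0.27 and Ifng 1.43, and the ratios differed by 0.24 (Tbx21 to Foxp3, exact permutation p = 0.516) and 0.15 (Ifngr1 to Ifngr2, exact permutation p = 0.594). Depth limits Il12rb2 and Ifng most.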

Other observations

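For each member with a mean log2 CPM of at least 4, the genes with the most similar level across the 14 libraries were found by the root mean square distance in log2 CPM, after centring each gene within the deep and the shallow libraries. For Cxcr3 these were Desi2 (0.265) and BC064078 (0.266), against a median distance of 0.612 to all genes. For Stat4 they were Cast (0.154), the gene of the calpain inhibitor calpastatin, and Brd2 (0.159), which encodes a bromodomain protein, against a median of 0.495. Runx3 lay nearest the chromatin gene Dek (0.157) and Syp (0.176), and Il12rb1 nearest Ino80c (0.183) and Arf6 (0.184). Ifngr1 lay nearest Mtpn (0.218) and Cdc42se2 (0.230), and Ifngr2 nearest Bcas2 (0.157) and Rassf1 (0.160). No gene of the Th1 lists was among these 12. They were picked as the nearest of the genes compared, so they lie below the median distance by construction, and no chance level was computed.

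Among the lists, Il23r, the receptor chain that pairs with Il12rb1 to bind IL-23, differed by -0.89 over both sets and by -1.34 with library group in the model. It belongs to the list of IL-12, IL-18 and IL-27 signalling, where 0 of 17 genes had an unadjusted p under 0.05 by limma in either model. Il18r1, a receptor chain for IL-18, had a difference of -0.50 within set a but 0.97 within set b. The interferon-gamma target gene Cxcl9 had 0.68 within set a but -0.78 within set b, and Socs1, an inhibitor of the same pathway, 0.71 and -1.07. The test of the difference between sets gave 1.47 ± 0.56 for Il18r1 (adjusted p 0.610 by limma), -1.46 ± 2.00 for Cxcl9 (adjusted p 0.870 by limma) and -1.77 ± 0.55 for Socs1 (adjusted p 0.610 by limma), so none passed. These genes were singled out after their values were seen.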
